A study of Rattus norvegicus with 12 samples.

Results

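The mitochondrial chromosome supplied 34 annotated loci to the jejunum table and 33 to the liver table, out of 21568 and 18703 genes, and 33 of these loci were in both. They were taken by their chromosome label alone, with no measured value used, and comprised 13 protein-coding genes and 2 rRNA loci in each tissue, with 19 tRNA loci in jejunum and 18 in liver. RNA was sequenced from jejunum and liver of Wistar Han rats kept under specific-pathogen-free conditions. Antibiotics rats received 5 mL/kg by gavage for 2 weeks of a mixture that held 20 g/L each of ampicillin, neomycin sulfate and metronidazole, 10 g/L of vancomycin and 0.2 g/L of amphotericin B, an antifungal. The rats that the labels call wild type received saline in the same volume, and the labels give neither age nor sex. Each tissue and treatment had 3 libraries, 12 in all, made from poly-T-selected RNA, and the labels do not tie a library to an animal, so that p-values measure the spread between these libraries.

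The mitochondrial genome is a small circular chromosome that encodes core subunits of respiratory complexes I, III and IV and of ATP synthase, together with the rRNAs and tRNAs used to translate them. Both strands are transcribed as long precursors, and the mRNAs are released where the tRNAs between them are cut out. All other subunits, and the proteins that copy, transcribe and translate this genome, are made from nuclear genes. Liver and small intestine are both rich in mitochondria. Poly-T selection keeps polyadenylated mitochondrial mRNAs, whereas mature tRNAs lack a long poly(A) tail, so the level at an RNA locus in these libraries is not the level of the mature RNA. Fragments were also selected by size, and a tRNA locus is shorter than the fragments kept. Coordinates are on the mitochondrial chromosome (MT) as the deposited annotation gives them, with the genome build not given in the sources used here, and loci that it names only by an identifier are called by that identifier.

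Recovered reads numbered between 14592126 and 19318616 per library, and reads outside the mitochondrial chromosome between 3510319 in wild-type jejunum replicate 3 and 18623207 in antibiotics liver replicate 3. Tissue identity followed the labels: the albumin gene Alb had 402547 to 1051410 normalized counts in the liver libraries and Myh11, the smooth muscle myosin gene, had 10117 to 58576 in the jejunal ones. Hepatocyte markers summed to 1523700 to 2603780 in liver (8 matched) and 14218 to 24075 in jejunum (7 matched), with each tissue normalized on its own. The smooth muscle markers summed to 221 to 407 in liver. The jejunal pieces differed in their makeup: 9 smooth muscle markers summed to 168600, 173972 and 187024 normalized counts with antibiotics, against 128712, 47360 and 43576 in wild type, and 3 of the 9 were higher at an adjusted p under 0.05 in limma, against 0.761% of all jejunal genes, with none of the 9 at 0 in any library. The 6 adipocyte markers, none at 0, summed to 6972, 3591 and 2734 normalized counts with antibiotics, against 40412, 6497 and 38812 in wild type. Wild-type replicate 2 thus lay within the antibiotics range, below the other wild-type libraries. All 6 estimates were below 0, and limma called 0 of them lower, against 0.519% of all jejunal genes. The part of these cell types in the jejunal values was not tested.

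The mitochondrial share of recovered reads was lower in every antibiotics liver than in every wild-type liver, and did not separate the jejunal groups. In liver it was 4.48, 3.93 and 3.60% with antibiotics, against 25.0, 6.42 and 16.02% in wild type, or 4.003% ± 0.445 and 15.8% ± 9.28 (SD, n = 3 each). The antibiotics livers lay close together, their highest share 1.24 times their lowest, while the wild-type livers spread over 3.89 times. In jejunum the share was 64.8, 51.3 and 38.7% with antibiotics, against 63.0, 26.8 and 80.7% in wild type, or 51.6% ± 13.0 and 56.8% ± 27.5 (SD, n = 3 each). The lowest and the highest jejunal value were both wild type, so the jejunal groups overlapped over their whole range. In every jejunal library the share was above that of every liver library, the closest pair being 26.8% in wild-type jejunum replicate 2 and 25.0% in wild-type liver replicate 1. The 95% Wilson interval of each share was at most 0.0490 percentage points wide, which covers counting error only. A sum over loci was not tested, and in tissue pieces fewer cells of a type rich in mitochondria and less mitochondrial RNA per cell cannot be told apart.

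**Figure D1:**
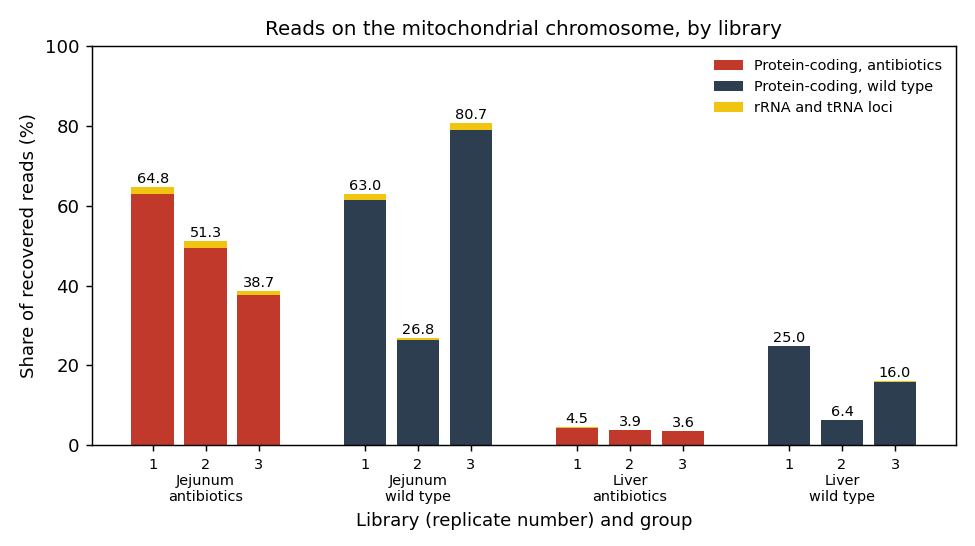
Share of recovered reads on the mitochondrial chromosome (percent, axis from 0), one bar per library, with the part on rRNA and tRNA loci stacked in yellow on the protein-coding part. Jejunal bars lie between 26.8 and 80.7% with the groups mixed, whereas the 3 antibiotics livers, at 3.60 to 4.48%, all lie below the wild-type livers, at 6.42 to 25.0%.

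Protein-coding genes took nearly all of this share. In liver they held 4.45, 3.90 and 3.57% of all reads with antibiotics, against 24.8, 6.36 and 15.9% in wild type. The 2 rRNA loci held 0.0233, 0.0253 and 0.0204% with antibiotics, against 0.139, 0.0461 and 0.144% in wild type, and the tRNA loci 0.00566, 0.00440 and 0.00447% against 0.0308, 0.00858 and 0.0186%. All 3 classes were thus lower in each antibiotics liver than in each wild-type liver. In jejunum the coding genes held 63.0, 49.3 and 37.6% with antibiotics, against 61.5, 26.4 and 78.9% in wild type. The jejunal rRNA loci held 1.72, 1.90 and 1.11% with antibiotics, against 1.46, 0.391 and 1.74% in wild type. The jejunal tRNA loci held 0.0819, 0.0508 and 0.0330%, against 0.0571, 0.0189 and 0.0660%, and the jejunal groups overlapped in each class.

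Set against the mitochondrial reads alone, the part on RNA loci was described in each tissue. In jejunum they made up 2.78, 3.81 and 2.95% of mitochondrial reads with antibiotics, against 2.41, 1.53 and 2.23% in wild type, so that every antibiotics library was above every wild-type one. In liver they made up 0.646, 0.755 and 0.691% with antibiotics, against 0.679, 0.852 and 1.02% in wild type, with overlap between 0.679 and 0.755%. These shares were not tested.

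The loci differed widely in level. In RPKM, recovered reads scaled by locus length and library size, Mt-co1, the catalytic core of complex IV at 5323 to 6867 on the plus strand, averaged 113292 ± 22637 in antibiotics jejunum, 120060 ± 57669 in wild-type jejunum, 10117 ± 1024 in antibiotics liver and 36134 ± 21083 in wild-type liver (SD, n = 3 each). Mt-atp6 (7919 to 8599), a membrane subunit of ATP synthase, and Mt-co3 (8599 to 9382) followed within these SDs in jejunum, at 106482 ± 27858 and 92541 ± 24234 RPKM with antibiotics and 115171 ± 55175 and 119811 ± 59508 in wild type. Mt-co3, like Mt-co2, encodes a core subunit of complex IV. Below them came Mt-co2 (7006 to 7689) at 75856 ± 24592 RPKM in antibiotics and 74113 ± 37928 in wild-type jejunum, and Mt-cyb (14136 to 15278), the only complex III gene of this genome, at 43197 ± 12384 and 56480 ± 26171.

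The complex I genes, whose products form the membrane arm of that complex, followed. In jejunum Mt-nd1 (2740 to 3694) averaged 28138 ± 7353 RPKM with antibiotics and 30220.4 ± 13743 in wild type, and Mt-nd2 (3904 to 4942) averaged 25972 ± 7503 and 27214 ± 13497. Mt-nd3 (9451 to 9798) and Mt-nd4l (9870 to 10166) were lower, at 12294 ± 4187 and 10688 ± 3605 RPKM with antibiotics, and Mt-nd5 (11736 to 13565) and Mt-nd6 (13543 to 14061, minus strand) lower again, at 6327 ± 2609 and 5663 ± 2313. Each of these pairs of neighbours lay within its SDs. Mt-nd4 (10160 to 11537), at 1679.7 ± 832 RPKM with antibiotics and 1670.2 ± 1071 in wild type, was next to last of the coding genes, and Mt-atp8 was last, at 186 ± 65.8 and 434 ± 407; both places held in liver too.

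In liver the same genes led. Mt-co1, Mt-atp6 and Mt-co3 averaged 10117, 7424 and 5943 RPKM with antibiotics and 36134, 31409 and 25196 RPKM in wild type. The mean order of the 7 highest was the same in both antibiotics groups, whereas Mt-co3 was ahead of Mt-atp6 in wild-type jejunum and Mt-cyb ahead of Mt-co2 in wild-type liver.

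Neighbouring genes on the chromosome did not have equal RPKM. Mt-nd4l and Mt-nd4 overlap by a few bases, and Mt-nd4l was 6.72 ± 1.16 times Mt-nd4 in RPKM in antibiotics jejunum, 6.46 ± 0.923 times in wild-type jejunum, 5.14 ± 0.614 times in antibiotics liver and 3.40 ± 0.0438 times in wild-type liver (SD, n = 3 each). The liver groups did not overlap, with 4.49 to 5.71 against 3.36 to 3.45. Mt-atp6 exceeded Mt-atp8 (7758 to 7961), the small ATP synthase subunit that overlaps it from 7919, by 520 to 624 times in antibiotics jejunum, 185 to 484 times in wild-type jejunum, 137 to 246 times in antibiotics liver and 177 to 300 times in wild-type liver. In both pairs the genes overlap with no tRNA locus between them, so the ratios are not shown to be differences in mRNA level. How reads in such overlaps, and reads shared with nuclear copies of mitochondrial DNA, were assigned is not given in the sources used here, and the values of overlapping genes are uncertain to that extent.

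Among RNA loci, the rRNA locus AY172581.24 (1094 to 2664) had 1.35 ± 0.256 and 1.26 ± 0.0722 times the RPKM of AY172581.9 (68 to 1025) in antibiotics and wild-type jejunum, but 0.432 ± 0.0803 and 0.716 ± 0.0849 times in antibiotics and wild-type liver (SD, n = 3 each). The tRNA loci on the minus strand, 6 in each table, took 91.6 to 91.9% of tRNA-locus reads in antibiotics jejunum, 92.4 to 95.1% in wild-type jejunum, 95.9 to 97.7% in antibiotics liver and 95.1 to 96.1% in wild-type liver, although 13 of the jejunal and 12 of the liver tRNA loci lie on the plus strand. A single minus-strand locus, AY172581.2 at 15348 to 15415, held most of them, between 59.6 and 86.5% of tRNA-locus reads in each library. Whether counting used strand is not given, so reads from the opposite strand at these loci cannot be told apart.

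In liver, 6 of the 13 mitochondrial protein-coding genes, both rRNA loci and 4 tRNA loci were lower after antibiotics. All 13 protein-coding genes had log2 fold changes below 0, from -2.76 to -1.63 with a median of -1.99, where the median over all genes tested was -0.0067. In limma, 12 of 29 loci tested passed an adjusted p of 0.05, all lower, against 4.89% of all liver genes called lower and 7.93% called higher, and 6 of these 12 were protein-coding. At an unadjusted p under 0.05 there were 25, among them all 13 coding genes. In 20 of the 29 loci no antibiotics library reached any wild-type one, where 18.1% of all liver genes were apart in that direction, and 0 were apart in the other, against 19.7% of all genes; of the coding genes Mt-nd3 alone overlapped. The tRNA locus AY172581.23 is among the 12, and it and AY172581.12 are among the 25 and the 20. Both passed the filter on the mean only through wild type, so these counts are in part set by the filter. The authors' deposited table lists 23 mitochondrial loci, with all 13 coding genes among them, as lower at its adjusted p under 0.05, against 7.36% of its genes.

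**Figure D2:**
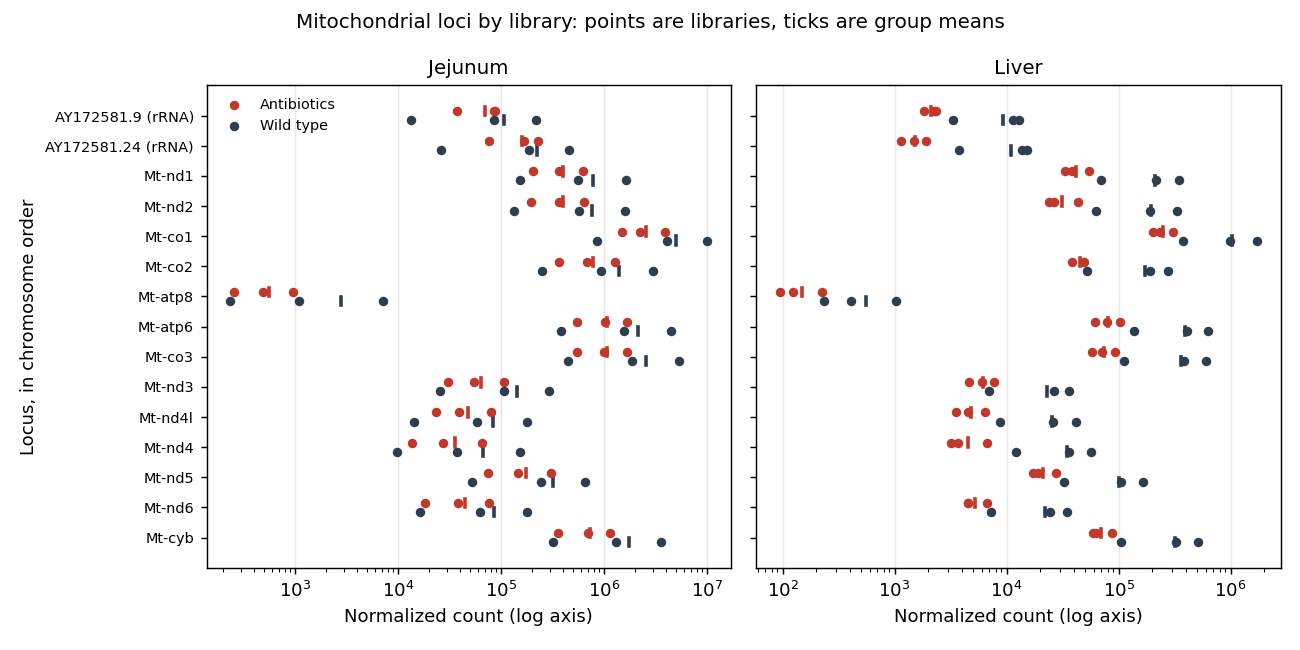
Normalized counts (log axis) of the 13 protein-coding genes and 2 rRNA loci in chromosome order, one point per library and a tick at each group mean, antibiotics in red and wild type in dark blue. In liver the red points lie left of the blue ones except at Mt-nd3, while in jejunum the wild-type points lie on both sides of the antibiotics points.

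The largest change among protein-coding genes was in complex I. Mt-nd4 had 6699.7, 3174 and 3682 normalized counts in antibiotics livers, against 56519, 12099.7 and 35807 in wild-type livers. It fell by 2.76 on the log2 scale with an SE of 0.572 (limma, adjusted p = 0.0262), which is 6.79-fold lower. Mt-nd2 fell by 2.40 (limma, adjusted p = 0.0364), Mt-nd4l by 2.17 (adjusted p = 0.0443) and Mt-nd1 by 2.09 (adjusted p = 0.0451). In the other 3 complex I genes the estimates did not pass the test: they were -1.99 for Mt-nd5, -1.84 for Mt-nd6, the one protein-coding gene of the minus strand, and -1.65 for Mt-nd3, with limma adjusted p of 0.0549, 0.0642 and 0.104.

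Complex IV and ATP synthase each had 1 gene past the threshold. Mt-co1 had 307803, 235864 and 204499 normalized counts in antibiotics livers, against 1709010, 374018 and 994868 in wild-type livers, and fell by 1.81 on the log2 scale with an SE of 0.504 (limma, adjusted p = 0.0464). Every antibiotics library was below the lowest wild-type one, replicate 2. Mt-atp6 had 103034, 78278 and 61435 with antibiotics, against 631957, 137823 and 409775 in wild type, and fell by 2.06 with an SE of 0.519 (limma, adjusted p = 0.0371). The other genes of these complexes missed the threshold at -2.01 (Mt-co3, adjusted p = 0.0535), -1.63 (Mt-co2, adjusted p = 0.0934) and -1.73 (Mt-atp8, adjusted p = 0.0901), and so did Mt-cyb of complex III at -1.93 (adjusted p = 0.0504), all in limma.

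Both rRNA loci and 4 tRNA loci were also lower. AY172581.24 had 1921, 1496 and 1140.3 normalized counts in antibiotics livers, against 15138, 3770.1 and 13714 in wild-type livers, and fell by 2.63 with an SE of 0.528 (limma, adjusted p = 0.0243). AY172581.9 had 2231, 2343 and 1819 against 11389, 3335 and 12929, and fell by 1.90 (adjusted p = 0.0438). Of the tRNA loci, AY172581.2 had 659, 439 and 443 normalized counts with antibiotics, against 3554, 915 and 2045 in wild type, and fell by 1.90 (adjusted p = 0.0398). AY172581.20 (14062 to 14130) fell by 2.84 and AY172581.1 (7693 to 7756) by 3.50, both with a limma adjusted p of 0.0131. AY172581.23 (11538 to 11605) rested on 1 read in the antibiotics livers together, against 37 reads in the wild-type livers, a ratio of 0.0202 after scaling by the library factors, with an exact 95% counting interval of 0.000498 to 0.120 (limma, adjusted p = 0.0361). The 10 other tRNA loci tested were also below 0. AY172581.6, AY172581.11, AY172581.12, AY172581.19 and AY172581.23 averaged under 1 normalized count with antibiotics, against 2.93 to 14.9 in wild type. They passed the filter on the mean of all 6 libraries only through wild type, so their sign was partly set by it. The 4 loci too low to test had deposited log2 fold changes of 1.47 (AY172581.3), 1.63 (AY172581.8), -2.41 (AY172581.17) and -3.54 (AY172581.15).

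**Figure D3:**
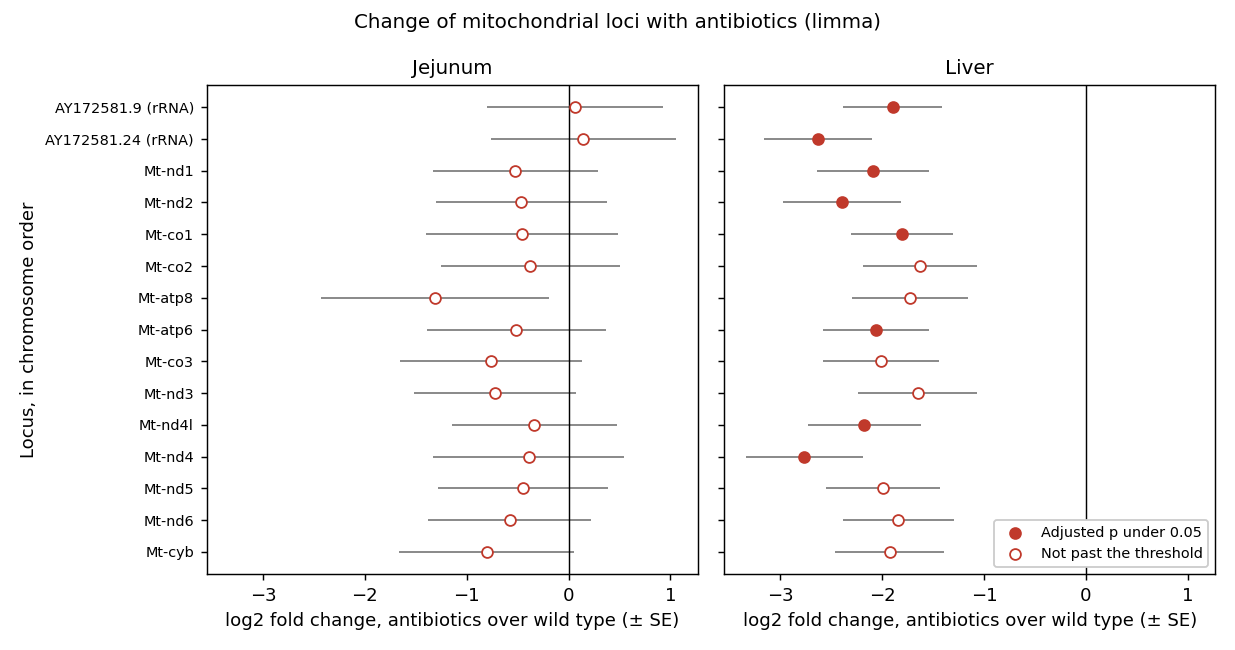
Log2 fold change, antibiotics over wild type, with its SE for the coding genes and rRNA loci in chromosome order, filled where the limma adjusted p was under 0.05. All 15 liver values lie between -2.76 and -1.63 and 8 are filled, whereas no jejunal value is filled and the jejunal values lie within 1 SE of 0 except at Mt-atp8.

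The count of liver loci called depended on single libraries, while the coding median was below 0 in each alternative run. Without wild-type replicate 3, 0 loci were called lower, against 0.121% of all genes, and without wild-type replicate 2, 24 were, against 11.5%. There were 2 without wild-type replicate 1 (1.68% of all genes), 2 without antibiotics replicate 1 (0.996%), 1 without antibiotics replicate 2 (0.949%) and 1 without antibiotics replicate 3 (0.903%). Calls over all genes thus moved with those of the mitochondrial loci, and the coding median stayed between -2.67 and -1.49. Several other measures moved with the liver groups. Across 9681 liver genes of 1 library, which share its RNA quality and depth, each library's deviation from the mean followed gene length, with Spearman's rho of 0.17 to 0.49 in antibiotics and -0.39 to -0.19 in wild-type livers. A smoothed trend on log gene length was fitted with mitochondrial loci included, whereas these rho values left them out. With this trend subtracted, 4 loci remained called, Mt-nd4, AY172581.24, AY172581.1 and AY172581.20, against 3.07% of all genes called lower, and the coding median was -1.50. The 5 erythroid markers, 3 of them lower and none at 0 in any library, summed to 12467, 11707 and 4493 normalized counts with antibiotics, against 33564, 18453 and 29085 in wild type, where replicate 2 was lowest as in mitochondrial share. Of 6 macrophage and Kupffer cell markers 2 were lower, with sums of 3889.8 to 5035 against 6201 to 9341, and of 8 hepatocyte markers tested 2 were higher and 1 was lower, where 4.89% of all liver genes were called lower and 7.93% higher. The part of blood, other cells or gene length in the mitochondrial result was not tested.

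In jejunum no mitochondrial locus passed the test. Of 33 loci tested, limma called 0, with 0 at an unadjusted p under 0.05, where 0.519% of all jejunal genes were called lower and 0.761% higher, 1.28% in all. edgeR also called 0, with 3 at an unadjusted p under 0.05, and DESeq2 called 1 lower. All 13 coding genes had estimates below 0, from -1.31 (Mt-atp8) to -0.34 (Mt-nd4l) with a median of -0.51 against 0.06 over all genes, and limma adjusted p from 0.535 to 0.845. That coding median was -0.95 in edgeR with RLE, -0.96 in edgeR with TMM, -0.95 in DESeq2 and -0.66 in limma-voom. With library totals in limma it was -0.012. In none of the 33 loci were the groups apart, whereas 11.3% of all jejunal genes were apart with antibiotics lower and 16.6% with antibiotics higher. The authors' deposited table lists 1 mitochondrial locus, the tRNA locus AY172581.11, as lower, against 3.84% of its genes.

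The jejunal values spread most among the wild-type libraries. Mt-co1 had 3933910, 2248600 and 1502950 normalized counts with antibiotics, against 4049320, 851932 and 9928610 in wild type, so that replicates 2 and 3 of wild type bracketed all the others; its log2 fold change was -0.46 with an SE of 0.94 (limma, adjusted p = 0.812). Mt-cyb had 1151840, 692697 and 355670 with antibiotics, against 1313390, 322117 and 3558610 in wild type, with a log2 fold change of -0.80 and an SE of 0.861 (limma, adjusted p = 0.616). The estimate was -0.76 for Mt-co3 and -0.39 for Mt-nd4. For the rRNA loci it was 0.06 at AY172581.9 and 0.15 at AY172581.24 in limma, with adjusted p of 0.976 and 0.944, and below 0 in edgeR, DESeq2 and limma-voom. The coding median was 0.32 without wild-type replicate 3 and -1.42 without wild-type replicate 2, so its sign rested on 1 library. Reads outside the mitochondrial chromosome numbered 3510319 in replicate 3 and 10684813 in replicate 2 of wild type, and the precision of the nuclear genes differs accordingly. Over 11480 genes outside the mitochondrial chromosome, rho with gene length was 0.26 to 0.34 in antibiotics and -0.29 to -0.18 in wild-type jejunum. With the gene-length trend subtracted, fitted with mitochondrial loci included, the coding median was -0.09.

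Within the mitochondrial reads the makeup was far steadier than the total. Over the 6 jejunal libraries the highest normalized count of a coding gene was 10.6 to 30.0 times the lowest, with a median of 12.1 times, but the highest share of mitochondrial reads was 1.09 to 3.47 times the lowest, with a median of 1.32 times. In liver the corresponding medians were 10.2 times for normalized counts and 1.27 times for shares. The 13 coding genes thus varied mostly together between libraries.

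The groups were apart in share at some loci. In liver the groups were apart in 7 of the 15 coding and rRNA loci, 6 lower (40% of the 15) and 1 higher (6.67%). This measure was taken for these loci only, so no rate over all genes stands beside these counts. Mt-nd4 made up 0.839, 0.532 and 0.706% of mitochondrial reads in antibiotics livers, against 1.18, 1.22 and 1.21% in wild-type livers, and Mt-nd2 made up 5.39, 4.40 and 4.57% against 6.93, 6.31 and 6.42%. Lower with antibiotics were also Mt-nd1, Mt-atp6, Mt-nd4l and AY172581.24, and higher was Mt-co1, at 38.5, 39.5 and 39.2% against 35.8, 37.8 and 33.6%. Summed by complex, the complex I genes made up 17.8% ± 1.26 and 20.9% ± 0.573 of mitochondrial reads in antibiotics and wild-type livers, and the complex IV genes 57.9% ± 1.69 and 53.8% ± 0.780 (SD, n = 3 each). Shares of 1 total depend on each other, so a lower share of some genes goes with a higher share of others.

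In jejunum 4 of the 15 loci were apart with antibiotics lower (26.7% of the 15) and 1 with antibiotics higher (6.67%), again with no rate over all genes. Mt-co3 made up 14.1, 14.3 and 13.7% of mitochondrial reads with antibiotics, against 16.1, 16.5 and 16.9% in wild type. Mt-cyb made up 9.65, 9.98 and 8.89% against 11.3, 11.9 and 11.2%, and Mt-nd3 and Mt-atp8 were lower as well. The rRNA locus AY172581.24 was higher with antibiotics, at 1.94, 2.44 and 1.92% against 1.59, 0.965 and 1.45%, and lower in liver, at 0.240, 0.251 and 0.219% against 0.317, 0.381 and 0.464%. These shares were described and not tested.

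**Figure D4:**
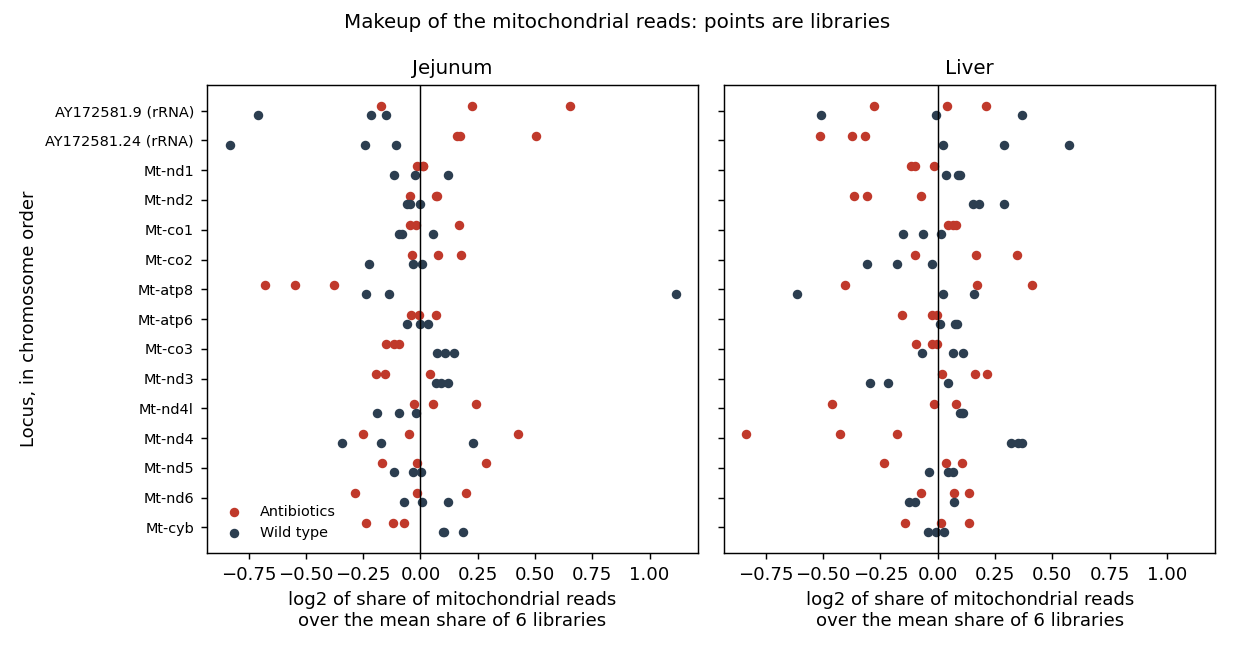
Each library's share of mitochondrial reads per locus, as log2 over the mean share of the 6 libraries of its tissue, antibiotics in red and wild type in dark blue. Mt-nd4, Mt-nd2 and AY172581.24 are apart in liver with antibiotics lower, and Mt-co3, Mt-cyb and, with antibiotics higher, AY172581.24 are apart in jejunum.

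Whether the antibiotics change differed between tissues was tested in 28 loci with edgeR on recovered reads of all 12 libraries. The difference, jejunum minus liver, had a median of 1.22 on the log2 scale over the 13 coding genes, with a range from -0.32 (Mt-atp8) to 2.12 (Mt-nd4), against -0.02 over all genes. It passed an adjusted p of 0.05 in 0 loci and an unadjusted p of 0.05 in 2, both tRNA loci, where 0.0423% of all genes were called lower and 0.0141% higher, 0.0564% in all. DESeq2 and limma-voom also called 0 loci. The liver change is therefore not shown to differ from that in jejunum.

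Wild-type jejunum and wild-type liver were compared in the same edgeR fit. Of 28 loci, 6 were higher in jejunum and 0 were lower, where 26.9% of all genes were called higher and 23.5% lower, 50.4% in all. The coding genes among the 6 were Mt-co2, with a log2 difference of 2.54 (edgeR, adjusted p = 0.0322), and Mt-nd3, with 2.14 (adjusted p = 0.0394). Both rRNA loci passed, AY172581.24 at 3.88 (edgeR, adjusted p = 0.00261) and AY172581.9 at 3.05 (adjusted p = 0.00657). The tRNA locus AY172581.14, at 2665 to 2739 directly after the rRNA locus AY172581.24, had 149, 46 and 228 reads in wild-type jejunum and 6, 2 and 7 reads in wild-type liver, a log2 difference of 4.75 (edgeR, adjusted p = 0.00113). AY172581.15 had 35, 9 and 28 reads against 0, 2 and 3 reads, a log2 difference of 3.60 (edgeR, adjusted p = 0.0129). AY172581.14 and AY172581.15, both among the 6, passed this fit's filter on read number only through jejunum. Their sign was thus partly set by the filter. The median over the 13 coding genes was 1.79, against 0.09 over all genes. The count of 6 changed with the scaling. It was 14 with library totals, where 26.4% of all genes were called higher and their median was 0.66, and 25 with the totals of reads outside the mitochondrial chromosome, where 71.1% were called higher and the median was 1.67. Without wild-type jejunum replicate 2, 18 of 29 loci were higher, against 25.7% of all genes.

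The nuclear genes for subunits of the same 4 complexes were described beside them, 65 tested in each tissue. In liver 15 of the 65 were lower and 1 was higher in limma, with 61 estimates below 0 and a median of -0.75, where 4.89% of all liver genes were called lower and the median of all was -0.0067. Complex I had 10 of 33 lower, among them Ndufb10 at -1.17 (adjusted p = 0.0173), Ndufs7, an iron-sulfur cluster subunit, at -1.16 (adjusted p = 0.0197) and Ndufc1 at -1.07 (adjusted p = 0.0219). Complex IV had 2 of 9 lower, Cox4i1 at -1.01 and Ndufa4 at -1.05 (adjusted p of 0.0458 and 0.0426). ATP synthase had 3 of 15 lower, among them Atp5f1c, a subunit of its central stalk, at -0.85 and Atp5pd at -1.18 (adjusted p of 0.0337 and 0.0372). Atp5pb, a subunit of the peripheral stalk, was higher: it had 403, 520.3 and 339 normalized counts with antibiotics, against 47.1, 21.5 and 107 in wild type, with a log2 fold change of 3.09 (limma, adjusted p = 0.0146). In jejunum Atp5pb varied over both groups, with 479, 45.7 and 10.7 normalized counts with antibiotics, against 386, 74.5 and 51.6 in wild type. Complex III had 0 of 8 called in either direction and complex II, which has no mitochondrially encoded subunit, 0 of 4. With the gene-length trend subtracted 2 of the 65 were lower, and the lower count was 36 without wild-type replicate 2 and 0 or 1 without any other library.

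In jejunum 5 of these 65 nuclear genes were lower and 0 higher, with 61 estimates below 0 and a median of -0.63, where 0.519% of all jejunal genes were called lower and the median of all was 0.06. The 5 were Uqcr11 of complex III at -1.77 (limma, adjusted p = 0.0226), Ndufa3, Ndufa13 and Ndufb3 of complex I at -1.89, -1.35 and -1.36, and Atp5me of ATP synthase at -1.58. Uqcr11 had 828, 872 and 605 normalized counts with antibiotics, against 2253, 3155 and 2463 in wild type, so that the groups were apart by more than the spread within either. None of the 5 remained called with the gene-length trend subtracted, and the lower count was 19 without wild-type replicate 1 and 0 or 1 without any other library.

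**Figure D5:**
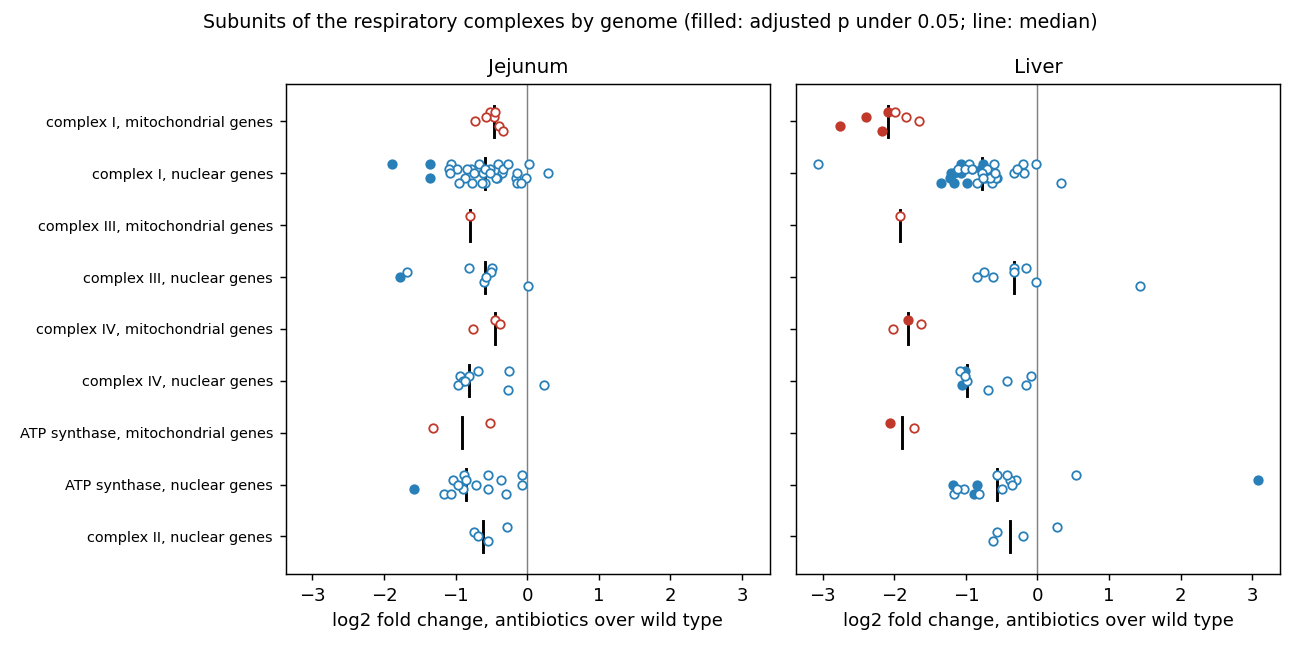
Log2 fold change, antibiotics over wild type, of subunits encoded by the mitochondrial genome (red) and by nuclear genes (blue), by complex, filled where the limma adjusted p was under 0.05, with a line at each median. In liver the mitochondrial genes lie near -2 and the nuclear partners have a median of -0.75, while in jejunum the medians are -0.51 and -0.63.

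Genes that maintain and express the mitochondrial genome were tested beside it. Of 69 tested in 4 lists, on mtDNA replication and maintenance, transcription, RNA processing and translation, 0 were called in jejunum, where 1.28% of all genes were, with a median of -0.20, and 3 in liver, where 12.8% of all genes were, with a median of -0.16. In liver Rrm2b, a ribonucleotide reductase subunit that supplies nucleotides for mtDNA, was higher, with 41.8, 36.9 and 49.5 normalized counts against 7.64, 12.3 and 4.56 (log2 fold change 2.33, limma, adjusted p = 0.0137). Tsfm, a mitochondrial translation elongation factor, was also higher, at 2.14 (adjusted p = 0.0117), and Dguok, the mitochondrial deoxyguanosine kinase, was lower, at -0.99 (adjusted p = 0.0319). Each kept its sign with 1 library left out, at 2.02 to 2.65, 1.88 to 2.57 and -1.19 to -0.76, but Rrm2b passed the threshold in 3 of these 6 fits, Tsfm in 4 and Dguok in 1.

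Tfam, Polrmt and Lrpprc, which act on mitochondrial transcription and mRNA stability, did not pass in either tissue. Tfam, which packages mtDNA and starts its transcription, had 332, 334 and 229 normalized counts in antibiotics jejunum, against 488, 994 and 387 in wild-type jejunum (limma, adjusted p = 0.160), and 399, 395 and 318 against 376, 385 and 447 in liver (adjusted p = 0.680). Polrmt, the mitochondrial RNA polymerase, averaged 248 ± 37.3 in antibiotics and 375 ± 73.3 in wild-type livers (adjusted p = 0.0884), and 274 ± 56.1 and 265 ± 17.5 in jejunum (adjusted p = 0.966), in limma with n = 3 each. Lrpprc, which stabilises mitochondrial mRNAs, averaged 1516 ± 294 in antibiotics and 1518 ± 199 in wild-type livers (adjusted p = 0.979), and 769 ± 139 and 812 ± 351 in jejunum (adjusted p = 0.987), also in limma with n = 3 each.

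Of the remaining lists, no member was called in either tissue among regulators of mitochondrial biogenesis, mitochondrial chaperones and proteases, or matrix and outer membrane proteins, against 1.28% of all jejunal and 12.8% of all liver genes. In liver the medians of these lists were 0.50 over 8 genes, 0.39 over 11 and -0.14 over 13. In jejunum they were 0.08, -0.46 and -0.33 over the same numbers of genes. The liver decrease at mitochondrial loci, with a coding median of -1.99, thus stood beside nuclear medians between -0.99 and 0.50 in the 12 lists.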

How the data were processed

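RNA from jejunum and liver was poly-T selected and sequenced as 150-base read pairs, per the labels' protocols. Software listed in the submitters' processing notes is CASAVA 1.4, HISAT2 2.0.5 and DESeq2 1.20.0. The genome build, read counter and use of strand are not given in the sources used here. The deposited count columns hold a normalized signal, tested on the values: 100% were whole reads within 0.01 after division by 1 factor per library. The authors' deposited FPKM, log2 fold changes and p-values are their own.

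An edgeR test was planned for whole counts; as the values were normalized, limma 3.58.1 (trend, robust) was run in R 4.3.3 on log2(normalized count + 1) per tissue, keeping genes whose mean was 1 or more, with Benjamini-Hochberg adjustment (19450 and 16540 genes, threshold 0.05). Fold changes on this scale understate changes of low genes. The tissue difference and the wild-type tissue comparison used edgeR 4.0.16 quasi-likelihood tests (TMM) on recovered reads of 14187 annotated genes with 1 identifier in both tables. RPKM was computed from recovered reads.

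Named were all coding and rRNA loci, tRNA loci past the threshold or with high shares, up to 3 called members per nuclear list, and Tfam, Polrmt and Lrpprc; AY172581.11, AY172581.14 and AY172581.15 were named after their values were seen. The mitochondrial loci were fixed by their chromosome label. The 12 nuclear lists held 182 symbols (173 matched, 170 tested, 3 left out for having 2 identifiers). Both were chosen for study with earlier results of these data known. Alternatives were filters, pseudocounts, scalings, a gene-length correction, edgeR, DESeq2 1.42.0, limma-voom, a replicate block and leaving out each library. Tests were tried on simulated data. No pair of libraries was a duplicate.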

Additional observations from a re-analysis of the deposited data

How the results depend on the processing

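Of the counts of mitochondrial loci called, that in liver was 12 lower as reported, 20 with a replicate block, 4 with a gene-length correction and 23 with DESeq2, and 0 to 24 with 1 library left out. No liver locus was called higher in any setting. In jejunum 1 locus was called lower with DESeq2 and 1 higher with a replicate block with gene-length correction. The tissue difference gave 1 locus with library totals. Wild-type jejunum over liver gave 14 higher loci with library totals, 25 with totals outside the mitochondrial chromosome, 11 with DESeq2, 0 with a replicate block and 4 to 18 with 1 library left out; lower were 1 with limma-voom and 0 to 1 with 1 left out. The cause of these differences was not tested. Deviations of same-numbered antibiotics and wild-type libraries had correlations of 0.0802, 0.105 and 0.0172 in jejunum and 0.0498, -0.0547 and -0.0817 in liver. Pairs with different numbers had -0.0958 to 0.0222 in jejunum and -0.0762 to 0.130 in liver. These weak values cannot exclude a pairing. Whether same-numbered jejunal and liver libraries came from 1 rat was not tested, and the fits over both tissues took all libraries as independent. By summed FPKM the mitochondrial share was 66.6% in antibiotics jejunum and 7.41% in antibiotics liver, and per length the RNA loci were 2.57% of mitochondrial reads in wild-type jejunum, 2.23% in antibiotics liver and 2.36% in wild-type liver.

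Jejunal estimates turned sign most. With library totals Mt-co1 was 0.047, Mt-nd4 0.11 and Lrpprc 0.49, and with totals outside the mitochondrial chromosome Lrpprc was 0.15. AY172581.9 and AY172581.24 were -0.59 and -0.49 in edgeR with RLE, -0.60 and -0.50 with TMM, -0.59 and -0.49 in DESeq2, and -0.10 and -0.013 in limma-voom. Polrmt was -0.18 with the gene-length correction, with or without the replicate block, -0.0038 with TMM and -0.016 in limma-voom. With 1 library left out the ranges were -1.42 to 0.35 (Mt-co1), -1.71 to 0.090 (Mt-co3), -1.72 to 0.015 (Mt-cyb), -1.38 to 0.60 (Mt-nd4), -1.06 to 0.97 (AY172581.9), -1.02 to 1.05 (AY172581.24), -0.10 to 0.20 (Polrmt) and -0.23 to 0.32 (Lrpprc). In liver Tfam was 0.10 with the gene-length correction, with or without the block, and 0.034 with library totals; Lrpprc was 0.15 with library totals, 0.00059 with TMM and 0.0090 in edgeR with TMM, and -0.16 to 0.077 with 1 library left out. Library totals moved the median gene to 0.50 in jejunum and 0.14 in liver. Low tRNA loci are limited by depth, and a count of 0 allows up to 3 reads in a library.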
